A study of Rattus norvegicus with 18 samples.

Results

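Liver transcripts of 9 genes that make, activate and place polyunsaturated fatty acids were followed in the BarNa rat model of non-alcoholic steatohepatitis (NASH). The 9 genes were the desaturases Fads1 and Fads2, the elongases Elovl2 and Elovl5, the long-chain acyl-CoA synthetases Acsl1, Acsl3, Acsl4 and Acsl5, and the lysophospholipid acyltransferase Lpcat3. They were chosen by gene symbol among the 32623 genes of the deposited tables. All 9 were among the 12904 genes that passed the filter on low counts. Liver RNA from male Wistar rats was sequenced as 1 library per rat, with 6 rats per group. Control rats received standard chow and normal water for 12 weeks. NASH rats inhaled CCl4, a hepatotoxin, and drank phenobarbital for 6 weeks, followed by 4 weeks of a diet rich in fat and cholesterol (HFCD), 10 weeks in all. NASH-CH rats, the model of NASH with cirrhosis, received CCl4 and phenobarbital for 8 weeks and then HFCD together with CCl4 and phenobarbital for 16 weeks, 24 weeks in all. Diet, toxin, phenobarbital and duration therefore differed together between the groups and cannot be told apart. These stages are those of the study's methods, by which CCl4 exposure had ended before the diet began in NASH rats and continued to the end in NASH-CH rats. The series' own design text describes 10 or 24 weeks of CCl4 plus the diet and does not mention stages, so the order of exposures rests on the methods alone.

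Mammals take linoleic and alpha-linolenic acid from the diet and convert them in the liver to arachidonic, eicosapentaenoic and docosahexaenoic acid. Fads2 (delta-6 desaturase) and Fads1 (delta-5 desaturase) insert double bonds, and Elovl5 and Elovl2 add carbons to the intermediates. Acyl-CoA synthetases of the ACSL family activate the products, and Lpcat3 transfers them preferentially into phosphatidylcholine and phosphatidylethanolamine of the endoplasmic reticulum. In liver, the desaturases, Elovl5 and Lpcat3 are known targets of the lipogenic regulator SREBP-1c, of liver X receptors or of both.

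The promoters of 4 of the genes are shown because the results turn on them: Fads1 and Fads2 lie close together on chromosome 1 and varied together from rat to rat, Lpcat3 had the lowest adjusted p of the 9 genes against control, and Acsl4 varied opposite to the desaturases. The sequences are those of RefSeq on the GRCr8 assembly, which is not the build of the counts, and all 9 genes were matched there by symbol. Each window runs 5′ to 3′ on the strand of the gene, from 250 bases before to 50 after the annotated start. Capitals mark CCAAT boxes on either strand, the letters bound by NF-Y.
Fads1 promoter, chr1:216252442-216252741, plus strand: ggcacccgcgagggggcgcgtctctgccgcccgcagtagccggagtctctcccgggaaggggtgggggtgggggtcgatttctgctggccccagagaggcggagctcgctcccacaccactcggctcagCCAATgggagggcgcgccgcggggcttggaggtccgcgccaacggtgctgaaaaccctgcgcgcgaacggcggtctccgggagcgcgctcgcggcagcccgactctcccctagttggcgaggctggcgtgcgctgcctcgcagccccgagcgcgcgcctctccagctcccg
Fads2 promoter, chr1:216171984-216172283, minus strand: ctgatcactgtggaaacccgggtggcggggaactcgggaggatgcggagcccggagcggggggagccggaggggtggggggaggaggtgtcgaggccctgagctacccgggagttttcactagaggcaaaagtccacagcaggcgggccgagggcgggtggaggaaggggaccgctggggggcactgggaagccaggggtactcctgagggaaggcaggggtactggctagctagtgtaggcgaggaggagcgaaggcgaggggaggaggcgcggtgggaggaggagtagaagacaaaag
Lpcat3 promoter, chr4:159154440-159154739, plus strand: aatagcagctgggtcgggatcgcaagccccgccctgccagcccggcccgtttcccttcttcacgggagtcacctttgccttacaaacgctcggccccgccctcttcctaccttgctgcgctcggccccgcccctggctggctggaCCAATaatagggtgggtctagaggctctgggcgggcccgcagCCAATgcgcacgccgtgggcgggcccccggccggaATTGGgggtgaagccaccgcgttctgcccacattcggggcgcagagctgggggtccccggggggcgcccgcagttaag
Acsl4 promoter, chrX:110803212-110803511, minus strand: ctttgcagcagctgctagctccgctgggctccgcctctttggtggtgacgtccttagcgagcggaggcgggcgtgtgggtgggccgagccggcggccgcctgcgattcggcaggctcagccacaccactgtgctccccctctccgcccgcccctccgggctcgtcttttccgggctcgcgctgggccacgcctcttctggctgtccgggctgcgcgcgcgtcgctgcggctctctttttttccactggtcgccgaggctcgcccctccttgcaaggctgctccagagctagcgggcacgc

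Fads1 had 1 CCAAT box, at position -121 from the start, and Lpcat3 had 3, at -105, -63 and -28. Fads2 and Acsl4 had 0. Elovl5 had 2, Acsl1 and Acsl3 had 1 each, and Elovl2 and Acsl5 had 0. A CCAAT box on either strand was present in 37.5% of all 33469 promoter windows of the same length. The GC box GGGCGG (33.1% of windows) occurred 1 time each in Fads1 and Fads2, 2 times in Acsl4 and 5 times in Lpcat3. The sterol regulatory element of the LDL receptor gene (0.125% of windows) and direct repeats of AGGTCA spaced by 1 base (DR1, 0.0538%) or by 4 (DR4, 0.00598%) had no exact match in the windows of the 9 genes. The E-box CACGTG (6.42%) had 1 match, in Elovl5. All motifs were searched on both strands, and no matches of different motifs overlapped in these windows. These matches describe the letters of the windows and are not measurements of binding.

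Total counts ran from 19498534 to 27174015 in control, from 20827770 to 29491947 in NASH and from 44680344 to 60117822 in NASH-CH rats. Depth and any difference in library preparation therefore cannot be told apart from condition in the NASH-CH group. At this depth the lowest count of any of the 9 genes was 121, for Acsl3 in a NASH rat. Levels are given as CPM, counts scaled to the library total after TMM correction, which are not corrected for transcript length and are not compared between genes. The liver markers were present in every group, with all 8 hepatocyte markers detected. Their summed level ran from 135228 to 190702 CPM in control livers, from 97909 to 157310 in NASH and from 89680 to 146141 in NASH-CH rats. The summed level of 6 cholangiocyte markers reached 41.3 CPM in 1 NASH-CH rat and at most 12.3 CPM in control and NASH rats. Marker counts are at an adjusted p under 0.05, which 17% of all genes passed between NASH-CH and control. The shares were 3.12% between NASH and control and 4.2% between NASH-CH and NASH. Of the 8 hepatocyte markers, 1 was higher and 1 lower in NASH, and 1 higher and 3 lower in NASH-CH, than in control. Of 8 markers of stellate cells and myofibroblasts, 3 were higher and 1 lower in NASH-CH than in control, and 3 were higher than in NASH. In NASH 1 was higher and 1 lower than in control. The sum of the stellate cell and myofibroblast markers ran from 273 to 367 CPM in control, 223 to 302 in NASH and 275 to 417 in NASH-CH rats. Of 8 macrophage markers, 5 were lower in NASH-CH and 1 was lower in NASH than in control, and none was higher. By staining, the study counted more CD68- and CD163-positive macrophages in NASH-CH livers than in controls. Markers of endothelial cells (6), lymphocytes (7), neutrophils (5) and adipocytes (5) had sums that overlapped between all groups. Of those tested, 1 of 6 endothelial and 1 of 2 adipocyte markers were higher in NASH-CH than in control. Of 4 tested cholangiocyte markers, 1 was higher in NASH-CH than in NASH. Small non-coding RNA genes took 15.5% to 21.6% of counts in control, 14.3% to 16.6% in NASH and 10.7% to 12.8% in NASH-CH rats, so NASH-CH rats did not overlap the others. The part of these marker levels and of the small RNA share in the levels of the 9 genes was not tested. In whole liver, fewer cells of a type and less RNA per cell cannot be told apart.

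A pair of livers stood apart from their groups. Control rat 6 had the lowest control level of 6 of the 9 genes (Fads1, Fads2, Elovl5, Acsl3, Acsl5 and Lpcat3) and the highest of Elovl2 and Acsl4. For those 6 genes its level lay within the range of NASH rats. The same liver had 205 CPM of Scd, the delta-9 desaturase that makes monounsaturated fatty acids, against 2251 to 5724 CPM in the other 5 controls and 14.7 to 407 CPM in NASH rats. It also had 1954 CPM of Cyp2e1, the cytochrome that activates CCl4, against 539 to 822 CPM in the other 5 controls and 1524 to 2843 CPM in NASH rats. Pathway genes described below went both ways in control rat 6. Acsf2 (15.99 CPM), Elovl1 (15.96 CPM) and Gss (27.8 CPM) lay within the other 5 controls and above every NASH rat. The highest NASH levels of these genes were 5.26, 14.4 and 24.8 CPM. Ppara (24.2 CPM) lay within the other 5 controls and below every NASH rat. Dbi (132 CPM), Gpam (54.6 CPM) and Pla2g12a (32.7 CPM) lay within the NASH range and outside the other 5 controls. NASH-CH rat 5 had the lowest level of its group for Elovl2, Elovl5, Acsl1, Acsl5 and Lpcat3, the highest for Acsl3, and the lowest hepatocyte marker sum of its group (89680 CPM). Among NASH rats, rat 6 had the highest level of Fads1, Fads2, Elovl2, Elovl5 and Lpcat3, while its Scd (304 CPM) and Cyp2e1 (1738 CPM) lay among the other NASH rats. Whether the liver labelled control rat 6 belongs to that group could not be settled from the files. By limma-voom 5 of the 9 genes passed between NASH and control without it, and 0 with all 18 rats. Some other tests and fits that kept it passed up to 4 of these 5 genes, as given below. Fads1 passed only in fits without it. The labels do not state a reason why these livers stood apart. Values are given with all 18 rats, and those without 1 or both of these livers are added for the 9 genes and the named pathway genes where a call or an overlap differs. Marker lists were counted with all rats.

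With all 18 rats, none of the 9 genes passed an adjusted p of 0.05 in any of the 3 comparisons by limma-voom (0 of 9 each). The share of all tested genes that passed was 3.12% between NASH and control, 17% between NASH-CH and control, and 4.2% between NASH-CH and NASH. Before adjustment, 6 of 9 genes had a p under 0.05 between NASH and control, all with lower levels in NASH, where 11% of all genes were lower at that p and 21.5% differed in either direction. Between NASH-CH and control the count was 1 of 9, again lower (15.6% of all genes lower, 31.7% in either direction). Between NASH-CH and NASH it was 2 of 9, both higher in NASH-CH (9.08% of all genes higher, 17.5% in either direction). The log2 fold change was below 0 for 8 of 9 genes in NASH, where its median was -0.58 against 0.0072 over all genes. It was also below 0 for 8 of 9 genes in NASH-CH, with a median of -0.15 against 0.013 over all genes. Scaling by library size only, which moved the median over all genes to 0.23 and 0.27 in the NASH and NASH-CH comparisons with control, left 7 and 3 of the 9 genes below 0. Between NASH-CH and NASH it was below 0 for 1 of 9 genes, with a median of 0.23 against 0.0068. The share of all genes below 0 was 49%, 48.5% and 48.7% in the same order. edgeR's quasi-likelihood test also gave 0 of 9 in each comparison, where it called 5.05%, 19% and 4.78% of all genes. DESeq2 gave 2 of 9 between NASH and control, Acsl3 (adjusted p = 0.0482) and Lpcat3 (adjusted p = 0.0323), where it called 9.52% of all genes, and 0 of 9 in the other comparisons, where it called 22% and 7.35%.

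**Figure D1:**
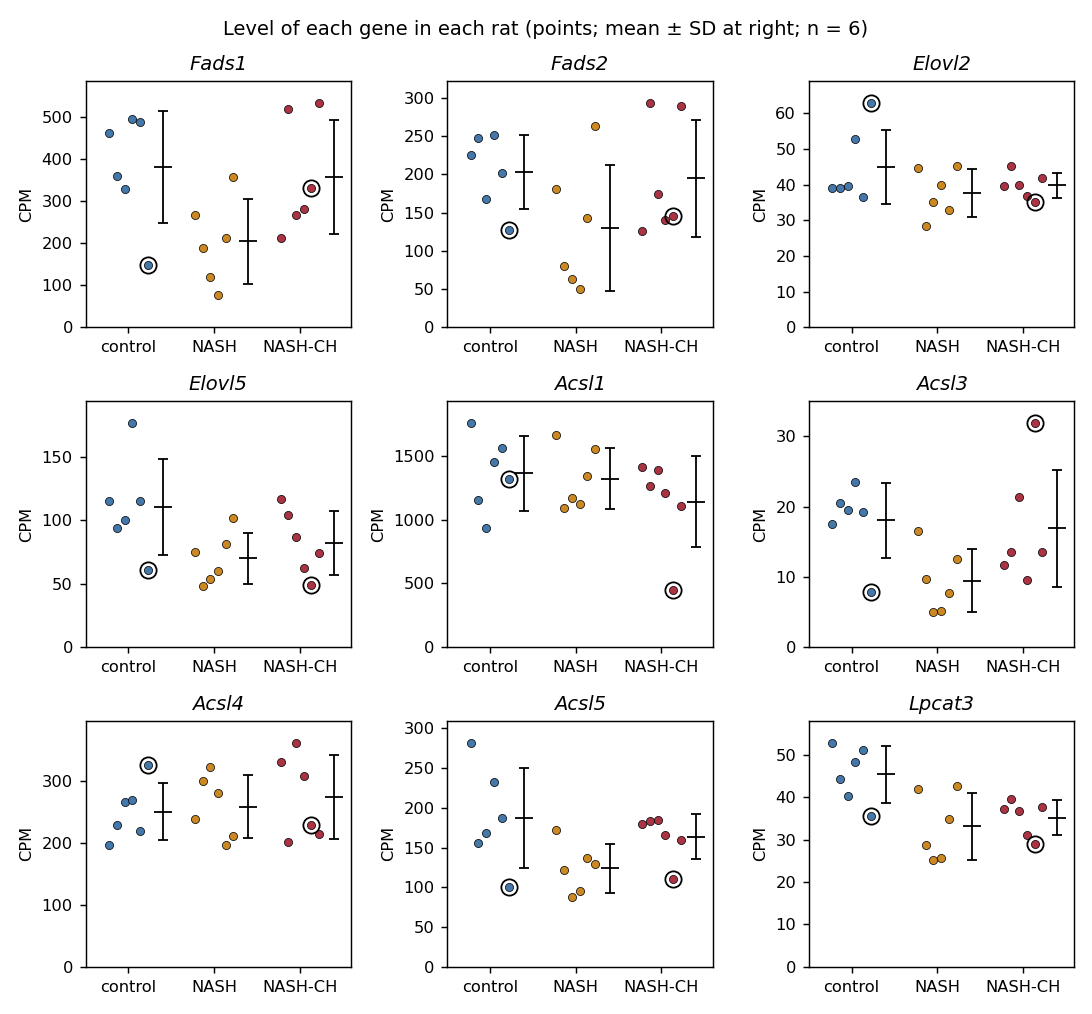
Level of each of the 9 genes in each rat, in TMM-scaled CPM (vertical axes from 0), with control, NASH and NASH-CH rats as points and the mean ± SD of 6 rats beside them. Open circles mark control rat 6 and NASH-CH rat 5, and control rat 6 was the lowest control for 6 genes, for example at 148 CPM of Fads1 where the other 5 controls had 329 to 494 CPM.

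Without control rat 6, 5 of the 9 genes passed between NASH and control by limma-voom, all lower in NASH. They were Fads1 (log2 fold change -1.22, adjusted p = 0.0321), Elovl5 (-0.79, 0.0395), Acsl3 (-1.22, 0.0268), Acsl5 (-0.74, 0.0241) and Lpcat3 (-0.54, 0.0290). In that fit 7.55% of all genes passed, and 4.13% passed in the lower direction. Fads2 (-0.99, adjusted p = 0.0988), Elovl2, Acsl1 and Acsl4 did not pass. Control rat 6 was set apart partly by its low levels of the 5 genes that passed. These calls are therefore not independent of that choice. The same 5 genes passed when NASH-CH rat 5 was left out as well, with 10.9% of all genes. With all rats kept and sample quality weights, 4 passed (Elovl5, Acsl3, Acsl5 and Lpcat3), with 11.7% of all genes. These weights come from how far the levels of each rat deviate from its group, not from a separate measure of library quality. They give less weight to rats that lie apart, so this fit is not independent of leaving such rats out. Leaving out NASH rat 6 alone gave 1, Lpcat3 (-0.55, adjusted p = 0.0393), with 3.44% of all genes. The other 16 fits that each left out 1 rat gave 0 of 9.

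**Figure D2:**
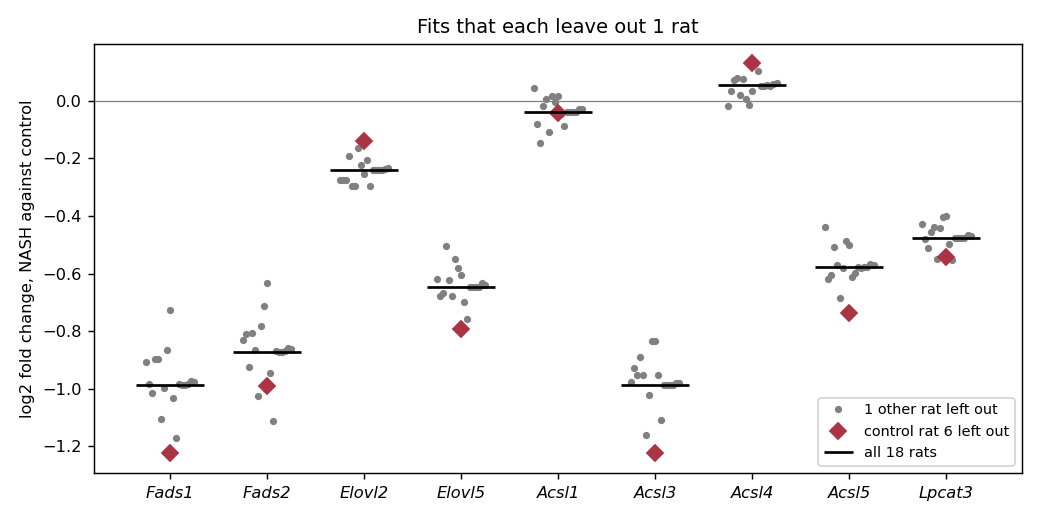
Log2 fold change of each gene between NASH and control rats (vertical axis) in the fit of all 18 rats (black lines), in fits that each leave out 1 other rat (grey points) and in the fit that leaves out control rat 6 (red diamonds). Leaving out control rat 6 moved Fads1 from -0.99 to -1.22 and Elovl2 from -0.24 to -0.14, and the signs of Acsl1 and Acsl4 changed among these fits.

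The desaturases had lower levels in most NASH livers. Fads1 had 148, 411 and 494 CPM in control rats (lowest, median and highest), 77.8, 201 and 357 CPM in NASH rats, and 212, 306 and 532 CPM in NASH-CH rats. Of the 6 NASH rats, 2 lay below every control rat and all 6 below the control mean of 380 ± 133 CPM (SD, n = 6), and the ranges overlapped. The log2 fold change between NASH and control was -0.99 ± 0.35 (SE, 95% confidence interval -1.72 to -0.25, adjusted p = 0.115), a ratio of 0.505. NASH-CH rats had a mean of 357 ± 136 CPM, and their difference from control was -0.08 (interval -0.87 to 0.70, adjusted p = 0.897), so a ratio anywhere from 0.548 to 1.63 was compatible with the data. All 6 NASH-CH rats were above the NASH mean of 204 ± 101 CPM (log2 fold change 0.90 ± 0.36, adjusted p = 0.191). In order of mean level, control and NASH-CH were neighbours that did not differ beyond their spread, with NASH last.

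Fads2, which catalyses the first desaturation of the pathway, had 127, 213 and 251 CPM in control, 50.2, 112 and 263 CPM in NASH and 126, 160 and 293 CPM in NASH-CH rats. Its level in NASH varied widely: 3 rats lay below every control rat and 1, rat 6, above every control rat. The coefficient of variation was 63.3% in NASH against 23.9% in control rats. The log2 fold change was -0.87 ± 0.34 between NASH and control (interval -1.59 to -0.15, adjusted p = 0.152). It was -0.11 ± 0.37 between NASH-CH and control (interval -0.89 to 0.67, adjusted p = 0.862) and 0.76 ± 0.36 between NASH-CH and NASH (adjusted p = 0.285). The ratio of Fads1 to Fads2 counts within a library, which needs no scaling between libraries, had a median of 1.97 in control (1.17 to 2.42), 1.52 in NASH (1.36 to 2.34) and 1.81 in NASH-CH rats (1.54 to 2.28), with overlapping ranges.

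The elongases differed in how they varied. Elovl5, which elongates the earlier intermediates, had 61.1, 108 and 176 CPM in control, 48.3, 67.5 and 102 CPM in NASH and 48.5, 80.6 and 116 CPM in NASH-CH rats. All 6 NASH rats lay below the control mean of 110 ± 38 CPM, and 3 lay below every control rat. Its log2 fold change was -0.65 ± 0.23 in NASH (interval -1.14 to -0.15, adjusted p = 0.122) and -0.41 ± 0.25 in NASH-CH (interval -0.93 to 0.10, adjusted p = 0.263). NASH-CH and NASH, neighbours in the order of levels, differed by 0.23 (interval -0.28 to 0.74, adjusted p = 0.678).

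Elovl2, which takes the longer intermediates on towards docosahexaenoic acid, had 36.5, 39.5 and 62.8 CPM in control, 28.5, 37.6 and 45.2 CPM in NASH and 35.3, 39.8 and 45.2 CPM in NASH-CH rats. Control rat 6 held the highest value, and the next highest control had 52.7 CPM. Elovl2 differed by -0.24 ± 0.14 in NASH (interval -0.53 to 0.05, adjusted p = 0.319) and -0.14 (interval -0.40 to 0.12, adjusted p = 0.518) without that rat. NASH-CH rats differed from control by -0.15 (interval -0.44 to 0.15, adjusted p = 0.503) and from NASH by 0.09 (interval -0.20 to 0.39, adjusted p = 0.790). The 3 group means, 45.0 ± 10.5, 37.7 ± 6.72 and 39.8 ± 3.55 CPM in control, NASH and NASH-CH, were thus not separated beyond their spread.

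Among the acyl-CoA synthetases, Acsl1, the main isoform of liver, had a difference near 0 in NASH. Its levels were 937, 1387 and 1758 CPM in control, 1091, 1255 and 1662 CPM in NASH and 450, 1238 and 1417 CPM in NASH-CH rats. NASH differed from control by -0.04 ± 0.23, with an interval of -0.52 to 0.44 (adjusted p = 0.942), which leaves room for ratios from 0.700 to 1.35. Between NASH-CH and control it was -0.31 ± 0.23 (interval -0.80 to 0.18, adjusted p = 0.376), and -0.07 (adjusted p = 0.786) without NASH-CH rat 5, whose 450 CPM was far below the other 5 rats of its group at 1109 to 1417 CPM.

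Acsl5, an isoform of mitochondria and endoplasmic reticulum, had 100, 178 and 282 CPM in control, 87.9, 125 and 172 CPM in NASH and 111, 173 and 184 CPM in NASH-CH rats. All 6 NASH rats were below the control mean of 188 ± 63.0 CPM. Against control it differed by -0.58 ± 0.21 in NASH (interval -1.02 to -0.14, adjusted p = 0.121) and -0.15 ± 0.22 in NASH-CH (interval -0.62 to 0.31, adjusted p = 0.673). NASH-CH against NASH gave 0.43 ± 0.22 (interval -0.03 to 0.89, adjusted p = 0.327). The count ratio of Acsl5 to Acsl1 within a library had a median of 0.148 in control (0.0759 to 0.180), 0.0937 in NASH (0.0751 to 0.111) and 0.141 in NASH-CH rats (0.127 to 0.246). The ranges of NASH and NASH-CH rats did not overlap. Those of control and NASH overlapped through control rat 6 alone (0.0759), and the other 5 controls, at 0.120 to 0.180, lay above every NASH rat. Control rat 6 was set apart partly by its low Acsl5, so the separation without it is not independent of that choice. How often ratios of other genes separate these groups was not counted. Acsl5 to Acsl1 was 1 of 5 ratios between members that were formed. The others, Elovl5 to Elovl2, Acsl4 to Acsl1, Acsl4 to Acsl5 and Fads1 to Fads2, overlapped between all groups, also without control rat 6 and NASH-CH rat 5.

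Acsl3, the isoform of lipid droplets and endoplasmic reticulum, had the lowest counts of the 9 genes. Its levels were 7.82, 19.4 and 23.5 CPM in control, 5.05, 8.71 and 16.5 CPM in NASH and 9.54, 13.5 and 31.9 CPM in NASH-CH rats. The other 5 controls, at 17.6 to 23.5 CPM, all lay above every NASH rat, and control rat 6 lay within the NASH range. That rat was set apart partly by its low Acsl3, so the separation without it is not independent of that choice. The share of all genes that separate in this way was not counted. In NASH the log2 fold change was -0.99 ± 0.34 (interval -1.71 to -0.26, adjusted p = 0.111), a ratio of 0.505. NASH-CH rats differed from control by -0.14 ± 0.32 (interval -0.82 to 0.54, adjusted p = 0.799). Against NASH they differed by 0.85 ± 0.34 (interval 0.14 to 1.56, adjusted p = 0.188), and without NASH-CH rat 5 by 0.64 (adjusted p = 0.333).

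Acsl4, which prefers arachidonic and adrenic acid and supplies the substrates of ferroptotic lipid peroxidation, was the 1 member above 0 in both models. It had 197, 248 and 326 CPM in control, 197, 260 and 324 CPM in NASH and 201, 269 and 362 CPM in NASH-CH rats. The group means were 251 ± 45.9, 259 ± 50.8 and 275 ± 67.9 CPM. The log2 fold changes were 0.05 ± 0.16 in NASH (interval -0.29 to 0.40, adjusted p = 0.888), 0.12 ± 0.17 in NASH-CH (interval -0.24 to 0.48, adjusted p = 0.665) and 0.07 ± 0.17 between the models (interval -0.29 to 0.43, adjusted p = 0.891). Ratios to control above 1.32 in NASH and above 1.39 in NASH-CH lay outside these intervals. The sign in NASH turned with sample quality weights (-0.01) and in some fits that left out 1 rat, with values from -0.02 to 0.13.

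Lpcat3 had the lowest adjusted p of the 9 genes against control in both models. Its levels were 35.4, 46.3 and 52.7 CPM in control, 25.1, 31.8 and 42.6 CPM in NASH and 28.9, 37.0 and 39.4 CPM in NASH-CH rats. Of the NASH rats 4 lay below every control rat, and of the NASH-CH rats 2. All 12 rats of both models lay below the control mean of 45.3 ± 6.63 CPM. Lpcat3 differed from control by -0.48 ± 0.14 in NASH (interval -0.77 to -0.18, adjusted p = 0.0674) and -0.36 ± 0.15 in NASH-CH (interval -0.67 to -0.06, adjusted p = 0.0964). These are ratios of 0.719 and 0.779. Without control rat 6 both passed, with -0.54 (adjusted p = 0.0290) and -0.43 (adjusted p = 0.0494), and 18.5% of all genes passed in the latter comparison. That rat was set apart partly by its low Lpcat3, so these calls are not independent of that choice. With NASH-CH rat 5 left out in addition, 0 of 9 genes passed between NASH-CH and control, against 19.5% of all genes. The models differed from each other by 0.12 (interval -0.19 to 0.42, adjusted p = 0.741). Lpcat3 was also the 1 member whose expected counts were fractional, in 18 of 18 rats, so some of its reads were shared with other genes by the estimate.

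**Figure D3:**
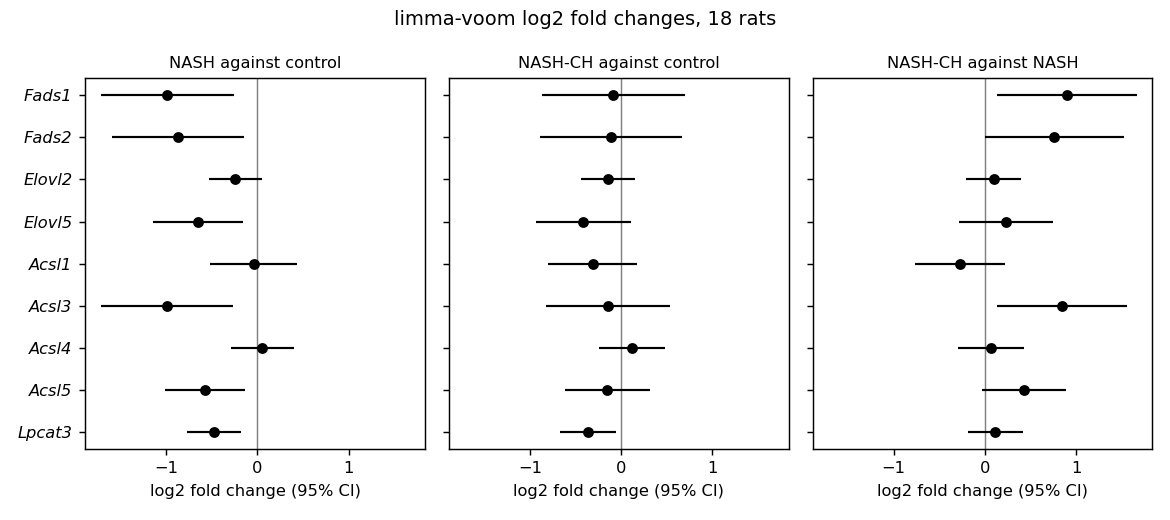
Log2 fold change of the 9 genes (points, horizontal axis) with 95% confidence intervals (lines) in the 3 comparisons of the fit of 18 rats. Between NASH and control the intervals of Fads1, Fads2, Elovl5, Acsl3, Acsl5 and Lpcat3 lie below 0, between NASH-CH and control that of Lpcat3, and between NASH-CH and NASH those of Fads1 and Acsl3 lie above 0. These intervals are not adjusted for the number of genes tested.

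Several of the 9 genes varied together from rat to rat within groups. Over all 18 rats Acsl4 and Elovl2 did not follow them, but for Elovl2 this changed without control rat 6 and NASH-CH rat 5. Deviations of log2 CPM from the group mean were compared over 18 rats, as a description, since all genes of a rat share its library and scaling. Of 36 pairs, 26 (72.2%) had a Pearson r above 0, 16 (44.4%) had one above 0.5 and 10 were below 0. Each of the 9 genes paired with every other tested gene gave 48.4% above 0 and 7.45% above 0.5. Acsl4 was below 0 with 6 of the other 8 genes, and Elovl2 had values from -0.16 to 0.31 with them. Fads1 and Fads2 had the highest value (r = 0.90, Spearman rho = 0.91, and r = 0.90 without the 2 rats farthest from the median). By group it was 0.87 (control), 0.96 (NASH) and 0.93 (NASH-CH). Fads2 and Lpcat3 followed (r = 0.86; 0.80, 0.98 and 0.60 by group), then Acsl5 and Lpcat3 (r = 0.82; 0.90, 0.87 and 0.80). Acsl4 went the other way: r was -0.74 with Fads1 (rho = -0.75; -0.77, -0.67 and -0.89 by group) and -0.70 with Fads2 (rho = -0.72; -0.69, -0.81 and -0.71). Acsl1 and Acsl3 were not of 1 kind in the groups, with r of -0.03, 0.79 and -0.74 in the same order. Without control rat 6 and NASH-CH rat 5, over 16 rats, 28 of 36 pairs were above 0 and 17 above 0.5, and Fads1 had r of 0.93 with Fads2 and -0.72 with Acsl4. In the 5 remaining controls these were 0.48 and -0.32, and the r of Acsl1 and Acsl3 in the 5 remaining NASH-CH rats was 0.35, opposite in sign to that of all 6. Over the 16 rats Elovl2 had r from 0.29 (Acsl5) to 0.67 (Elovl5) with the members other than Acsl4 (-0.20). In the 6 NASH rats Elovl2 had r from 0.27 (Fads1) to 0.73 (Acsl1) with them, and -0.36 with Acsl4. Of the promoters printed above, those of Fads1 and Fads2 each hold a GC box, and that of Fads1 alone of the pair holds a CCAAT box. Acsl4, which varied opposite to both, holds 2 GC boxes, and 33.1% of all windows hold this motif. A link between these letters and the variation was not tested.

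**Figure D4:**
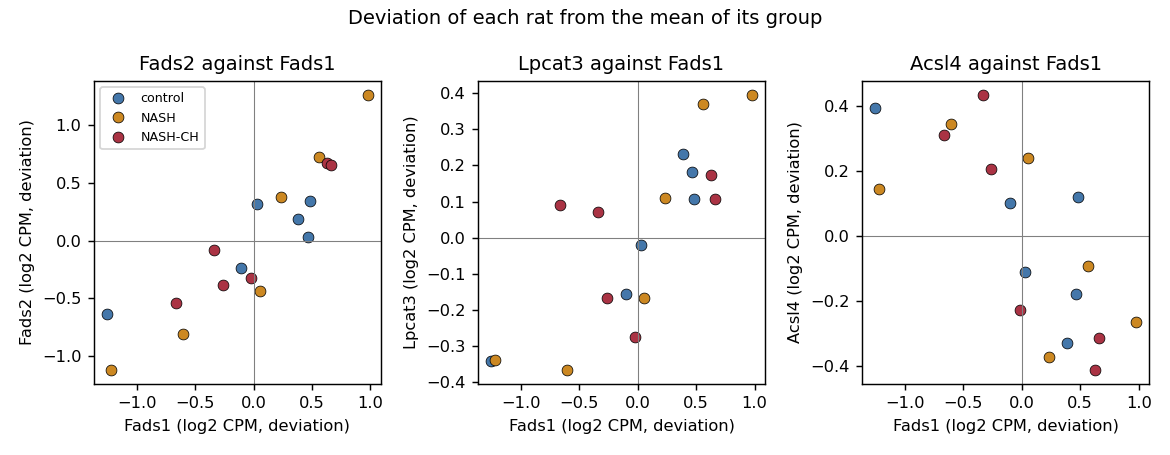
Deviation of each rat from the mean of its group in log2 CPM, for Fads2, Lpcat3 and Acsl4 (vertical axes) against Fads1 (horizontal axes), with 18 rats coloured by group. Points of Fads2 and Lpcat3 run upwards with Fads1 (r = 0.90 and 0.80) and points of Acsl4 run downwards (r = -0.74).

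Over the 18 rats, the tested genes most like each member were named by Pearson r of log2 CPM. For Fads1 these were Fads2 (0.93), Shkbp1 (0.89) and Gapdh (0.88). For Fads2 they were Fads1, Slc25a1 (0.87) and Nudt18 (0.86). Elovl5 was most like Gulo (0.92), Ddx58 (0.89) and Arl2 (0.87), and Elovl2 had no gene above 0.71 (Hexim1). Acsl1 was like Acox3 (0.94), the peroxisomal oxidase of branched chains, with Aldh2 (0.93). Acsl5 was most like Gapdh (0.92), Acaca (0.91), which makes malonyl-CoA for fatty acid synthesis and elongation, and Copz1 (0.90). Acsl3 was like Lactb and Pnpla3 (each 0.85). Acsl4 was most like Heatr3 (0.77), Wapl (0.76) and Gnl3 (0.76). Lpcat3 was most like Dbi (0.93), the acyl-CoA-binding protein, with Tmbim6 (0.91) and Mipep (0.91). Within groups the r of Lpcat3 and Dbi was 0.88 and that of Acsl1 and Acox3 was 0.94. Over the 16 rats without control rat 6 and NASH-CH rat 5, the r of Elovl2 and Hexim1 was 0.44, that of Acsl1 was 0.82 with Acox3 and 0.78 with Aldh2, and the other named pairs ran from 0.74 (Acsl4 and Wapl) to 0.95 (Fads1 and Fads2).

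Srebf1, which encodes SREBP-1, was singled out of 13 regulators after the values had been seen, as the one with the most members above an r of 0.5. Its deviations within groups had an r above 0.5 with 5 of the 9 genes: Lpcat3 (0.78), Acsl5 (0.77), Fads2 (0.73), Fads1 (0.73) and Elovl5 (0.60). Acsl4 had the lowest value (-0.40). The r of Srebf1 and Fads1 was 0.88 in control and 0.89 in NASH but 0.07 in NASH-CH rats, and that of Srebf1 and Lpcat3 was 0.80, 0.79 and 0.70. Over the 16 rats without control rat 6 and NASH-CH rat 5, Srebf1 was still above 0.5 with 5 genes, with Acsl3 (0.67) in place of Elovl5 (0.39). The level of Srebf1 itself did not pass the threshold, with a log2 fold change of -0.67 ± 0.50 in NASH (adjusted p = 0.472) and of 0.21 ± 0.54 for NASH-CH against control (adjusted p = 0.820).

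Around the 9 genes, 99 of 123 listed genes of the same pathways were tested. Between NASH and control, 3 rose and 7 fell by limma-voom at an adjusted p under 0.05, and between NASH-CH and control 8 rose and 13 fell. Between NASH-CH and NASH 4 were higher and 1 was lower in NASH-CH. The shares of the 99 genes are read against the 3.12%, 17% and 4.2% of all genes. Without control rat 6, none of these calls was lost (0 of 99 genes in each comparison). In that fit 7 rose and 12 fell in NASH (7.55% of all genes passed) and 8 rose and 15 fell in NASH-CH (18.5%). Without NASH-CH rat 5, 4 calls between NASH-CH and control were lost and 6 were gained. Of 15 other desaturases, elongases and enzymes of the elongation cycle, 0 rose and 2 fell in NASH. Scd fell from 3373 to 200 CPM on average (log2 fold change -4.47 ± 0.90, adjusted p = 0.0139), and by 5.15 on the log2 scale without control rat 6 (adjusted p = 0.00378). Elovl1, an elongase of saturated and monounsaturated very long chains, fell from 18.1 to 11.4 CPM (-0.69 ± 0.12, adjusted p = 0.00861). In NASH-CH 2 rose and 1 fell. Scd2 rose to 15.2 from 7.20 CPM (1.08 ± 0.21, adjusted p = 0.00224), and it was also higher than in NASH (adjusted p = 0.00459). Hacd4, a dehydratase of the elongation cycle, rose from 0.172 to 0.673 CPM (adjusted p = 0.0171). Its levels were near the floor, at 0.0827 to 0.303 CPM in control and 0.328 to 1.25 CPM in the deeper NASH-CH libraries. It passed the filter on low counts through the NASH and NASH-CH rats, so its rise is not separate from that filter. The 1 that fell was Elovl6, the elongase of palmitate, named here after its values were seen. It went from 1.72 to 0.480 CPM (-2.29 ± 0.72, adjusted p = 0.0354), and to -1.79 (adjusted p = 0.0892) without NASH-CH rat 5. In NASH it had 0.176 CPM (-3.54 ± 1.07, adjusted p = 0.0730), and it passed there without control rat 6 (adjusted p = 0.0226). Elovl1 also passed in NASH-CH without NASH-CH rat 5 (-0.39, adjusted p = 0.0285).

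Of 12 other acyl-CoA synthetases, thioesterases and acyl-CoA-binding proteins, 0 rose and 2 fell in NASH, and 0 rose and 3 fell in NASH-CH. Acsf2, a synthetase of medium chains, fell from 17.8 to 4.70 CPM in NASH (-1.91 ± 0.17, adjusted p = 1.5e-05) and to 5.93 CPM in NASH-CH (-1.60 ± 0.15, adjusted p = 8.71e-07). Dbi fell in both models (-1.17 ± 0.25, adjusted p = 0.0201, and -0.95 ± 0.27, adjusted p = 0.0209). It had 132 CPM in control rat 6 and 241 to 338 CPM in the other controls, without which rat the changes were -1.36 and -1.13. Acsbg1 fell in NASH-CH (-2.39 ± 0.34, adjusted p = 9.99e-05), and without control rat 6 it also passed in NASH (-1.24, adjusted p = 0.0276) and between the models (-1.33, adjusted p = 0.0420). Its levels were low, at 0.789 to 1.81 CPM in control and 0.117 to 0.808 CPM in NASH-CH rats. Of 14 other phospholipid acyltransferases, 0 rose and 1 fell in NASH, and 1 rose and 2 fell in NASH-CH. Gpam, which starts glycerolipid synthesis, fell in both models (-0.95 ± 0.24, adjusted p = 0.0393, and -1.14 ± 0.25, adjusted p = 0.0049). Its level was 54.6 CPM in control rat 6 and 101 to 156 CPM in the other controls, and without that rat the changes were -1.13 and -1.32. Agpat2 fell (-0.61 ± 0.15, adjusted p = 0.0114) and Agpat3 rose (0.58 ± 0.16, adjusted p = 0.0170) in NASH-CH. Agpat1 was higher in NASH-CH than in NASH (0.70 ± 0.15, adjusted p = 0.0104).

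Of 10 phospholipases that can release polyunsaturated fatty acids, 2 rose in NASH and 3 in NASH-CH, and none fell. Pla2g15, the lysosomal enzyme, rose from 9.67 to 25.9 CPM in NASH (1.36 ± 0.25, adjusted p = 0.0110) and to 19.1 CPM in NASH-CH (0.93 ± 0.25, adjusted p = 0.0177). The secreted Pla2g12a rose from 12.4 to 35.5 and 25.1 CPM (log2 fold change 1.80 and 1.31, adjusted p = 0.0144 and 0.0210). Control rat 6 had 32.7 CPM of it and the other controls 4.17 to 15.8 CPM, and the changes without that rat were 2.17 and 1.68. Pla2g7, which degrades platelet-activating factor and is expressed by macrophages, rose from 0.295 to 2.68 CPM in NASH-CH (3.22 ± 0.50, adjusted p = 0.000245), and passed in NASH without NASH-CH rat 5 (1.90, adjusted p = 0.0205). Its control levels, 0.0771 to 0.496 CPM, were near the floor. It passed the filter on low counts through the NASH and NASH-CH rats, so its rise is not separate from that filter. The summed level of 8 macrophage markers ran from 289 to 525 CPM in control and from 181 to 274 CPM in NASH-CH rats. By staining, the study counted more CD68- and CD163-positive macrophages in NASH-CH livers than in controls. The part of macrophage number in the Pla2g7 level was not tested. Of 16 genes of arachidonate oxygenation, none passed in NASH and 3 fell in NASH-CH: Ltc4s, the leukotriene C4 synthase (-2.02 ± 0.64, adjusted p = 0.0378), Hpgd, which inactivates prostaglandins (-1.08 ± 0.35, adjusted p = 0.0418), and Ptges2 (-0.34 ± 0.11, adjusted p = 0.0419). Without NASH-CH rat 5, Ltc4s (adjusted p = 0.0851) and Ptges2 (adjusted p = 0.0774) no longer passed. Levels of Ltc4s were near the floor, at 0.248 to 2.74 CPM in control and 0.0873 to 0.540 CPM in NASH-CH rats. So were those of Hpgd, at 0.359 to 0.843 CPM in control and 0.0860 to 0.524 CPM in NASH-CH rats. In NASH, 3 of these 16 genes of arachidonate oxygenation had an unadjusted p under 0.05, as did 21.5% of all genes. In NASH-CH 17% of all genes passed, so neither count sets this list apart.

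Of 10 genes of peroxisomal chain shortening, which makes docosahexaenoic acid from its longer precursor, 1 fell in each model. It was Eci2, an enoyl-CoA isomerase (-0.47 ± 0.11, adjusted p = 0.0258, and -0.57 ± 0.11, adjusted p = 0.00208). Of 13 regulators, Ppara, the receptor for fatty acids that drives their oxidation, rose from 21.6 to 39.9 CPM in NASH (0.91 ± 0.22, adjusted p = 0.0308) and to 39.7 CPM in NASH-CH (0.88 ± 0.23, adjusted p = 0.0132). Pparg rose in NASH-CH (0.81 ± 0.27, adjusted p = 0.0432), and in NASH it passed without control rat 6 (1.15, adjusted p = 0.0314) or without NASH-CH rat 5 (1.02, adjusted p = 0.0435). Of 9 genes of defence against lipid peroxides, 1 fell in NASH and 3 in NASH-CH. Gpx4, which reduces phospholipid hydroperoxides, had 130 CPM in control, 105 CPM in NASH rats (adjusted p = 0.168) and 84.9 CPM in NASH-CH rats, where it fell by 0.61 on the log2 scale (adjusted p = 0.00263). Aifm2, which regenerates ubiquinol, fell in NASH-CH (-0.47 ± 0.14, adjusted p = 0.0275). Vkorc1l1 was the third (-3.87, adjusted p = 0.0332), and it did not pass without NASH-CH rat 5 (adjusted p = 0.0851). Its levels were near the floor, at 0.347 to 1.199 CPM in control rats. NASH-CH rats 2, 3, 4 and 5 had 0 CPM, while rat 1 had 0.72 CPM and rat 6 had 1.36 CPM, above every control. The Vkorc1l1 change therefore rests on rats at 0 CPM and was not a shift of the whole group. Gss, the glutathione synthetase, fell in NASH (-0.55 ± 0.14, adjusted p = 0.0346) and was higher in NASH-CH than in NASH (0.53 ± 0.14, adjusted p = 0.0341). Acsl4, whose products Gpx4 protects from peroxidation, did not pass in either model.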

How the data were processed

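RNA was sequenced from 1 liver sample per rat in control, NASH and NASH-CH groups of 6. Groups were taken from the labels, and the protocols from the study's methods. The labels name the RNAqueous-Micro kit and the methods another extraction kit. The authors trimmed the reads, aligned them to Rnor_6.0 with STAR and deposited RSEM expected counts per gene, normalized neither for library size nor for transcript length. The submitters' processing notes also name FastQC, Trim Galore and limma. A strand setting for the counting was not given in the sources used here.

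Expected counts were rounded, filtered with filterByExpr and scaled by TMM in edgeR 4.0.16. One limma-voom fit (limma 3.58.1, R 4.3.3) of 18 rats gave moderated tests, adjusted by the Benjamini-Hochberg method over all 12904 genes at a threshold of 0.05. Levels are CPM with TMM-scaled library sizes, and log2 CPM used a prior count of 2. Confidence intervals are at 95%, unadjusted. Alternatives were DESeq2 1.42.0, edgeR's quasi-likelihood test, other scalings, filters and samples, and leaving out each rat. Leaving out control rat 6 and NASH-CH rat 5 together was added after seeing the data, as were the pathway genes without either rat and the ratios and correlations without both.

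The 9 genes, the pathway lists and the marker lists were chosen with earlier results of these data known. Of each pathway list, at most the 4 genes with the smallest adjusted p among those that passed were named, and likeness to a member was ranked by Pearson r over 18 rats. Some genes ranked there are not reported here. Promoter windows came from RefSeq tables of GRCr8 and were searched for exact letters. The 3 tests were tested on simulated counts of 12810 genes for NASH against control, with 200 genes given a log2 change of 1.5, larger than any of the 9 genes showed. Limma-voom found 196 of them with 0 other calls, edgeR 195 with 2 and DESeq2 196 with 21. No 2 libraries of a group were alike within counting error (smallest chi-square per degree of freedom 28.3). Totals give counting error only, and 6 rats per group limit the precision. Rats shared cages, and the labels do not say which.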

Additional observations from a re-analysis of the deposited data

Results flagged for a closer look

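Of 30 groups of 6 rats tested for a value far from the rest, 2 were picked out, both in NASH-CH rat 5, and chance alone picks out about 1 in 20 groups. Its Acsl1 level was 450 CPM, where the nearest NASH-CH rat had 1110 CPM, a gap of 0.682 of the range of the group. Its Acsl5 level was 111 CPM, where the nearest rat had 159 CPM, a gap of 0.655 of the range. The same liver had the lowest hepatocyte marker sum of its group (89680 CPM) and the highest cholangiocyte marker sum (41.3 CPM). The part of these marker levels in the Acsl1 and Acsl5 values was not tested.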

How the results depend on the processing

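The number of the 9 genes that passed was 0 in every alternative other than these. Between NASH and control it was 2 with DESeq2 and 4 with sample quality weights, and it ran from 0 to 5 when 1 rat was left out, with 5 without control rat 6. Without control rat 6 and NASH-CH rat 5 it was 5. Between NASH-CH and control it ran from 0 to 1. The number of all genes that passed between NASH and control was 652 with edgeR's quasi-likelihood test, 1228 with DESeq2, 865 with library size only, 268 without a filter on low counts, 644 with the 2 groups fitted alone, 1509 with sample quality weights and 39 at an adjusted p under 0.01, against 403. It ran from 128 to 982 when 1 rat was left out: 151, 128, 151, 178 and 982 without control rats 1, 3, 4, 5 and 6, 233, 131, 200 and 158 without NASH rats 1, 3, 4 and 5, and 721 without NASH-CH rat 5. Between NASH-CH and control it was 5495 without a filter, 1408 with the 2 groups alone and 849 at 0.01, against 2192, and ran from 1519 to 2409. Between NASH-CH and NASH it was 949 with DESeq2, 2649 without a filter, 349 with the 2 groups alone, 239 at 0.01 and 270 without small non-coding RNA genes, against 542, and ran from 346 (without NASH rat 3) to 591. Cutoffs at 0.01 pass fewer genes by construction, and for the others the cause was not tested.

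Library size only moved the median of all genes to 0.23 between NASH and control and to 0.27 between NASH-CH and control. The share of higher genes among those that passed became 90.8%, 85% and 32.4% in the 3 comparisons, against 50.6%, 49.4% and 43.2%. It was 27.8% (NASH-CH) and 19.7% (between the models) without a filter, and 55%, 47.2% and 30.1% with the 2 groups alone. At an adjusted p under 0.01 it was 61.5%, 44.1% and 23.8%. With library size only, the sign of the log2 fold change turned for Acsl1 in NASH (0.19) and for Fads1 (0.19), Fads2 (0.15), Elovl2 (0.10), Acsl3 (0.13) and Acsl5 (0.11) in NASH-CH, all below the shift of all genes. With sample quality weights it turned for Acsl1 (0.017) and Acsl4 (-0.0056) in NASH. Leaving out 1 rat gave -0.15 to 0.045 for Acsl1 and -0.017 to 0.13 (0.14 without both control rat 6 and NASH-CH rat 5) for Acsl4 in NASH, -0.32 to 0.051 for Fads1 in NASH-CH and -0.018 to 0.15 for Acsl4 between the models, none of them past the threshold. Of 279 values per comparison, 253, 271 and 277 kept their direction and their side of the threshold.

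Rats are numbered 1 to 6 within each group, and the labels do not tie equal numbers to a shared litter, cage or day. Deviations of same-numbered rats had r from -0.119 to 0.171 between NASH and control. They ran from 0.027 to 0.124 between NASH-CH and control and from -0.074 to 0.080 between NASH-CH and NASH. Such low values over all genes cannot exclude a shared litter, cage or day, so pairing was left undecided. With the replicate number as a block, 444, 2095 and 540 genes passed, and 0 of the 9 genes in each comparison.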
